A study of Rattus norvegicus with 6 samples.

Results

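The genes described here form the core of the circadian clock and its nearest outputs: Bmal1, Npas2, Clock, Per1, Per2, Per3, Cry1, Nr1d1, Dbp and Ciart. They were chosen by name with earlier results of these data known, as were the gene lists below. A probe was assigned to a gene when the RefSeq accession of the probe mapped to that gene. All 10 genes had a probe, 11 probes in all because Nr1d1 had 2, among 13876 genes with a named probe. All 10 entered the test, which covered 11001 genes.

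Messenger RNA was profiled on 1-colour microarrays in heart muscle of male Wistar rats. An infarct was made in 3 rats by ligating the LAD (left anterior descending coronary artery), and the tissue bordering the infarct was located 6 h later by TTC and EB double staining and sampled (border-zone arrays M17, M24 and M25). The 3 control rats were sham-operated, and the matching control zone was sampled at 6 h (sham arrays C4, C5 and C6). No genetic change and no drug is named for either group. The age of the animals, the clock hour of surgery and sampling, and the light schedule are not given in the sources used here. The labels name no cell type below the tissue, and in bulk tissue fewer cells of a type and less RNA per cell cannot be told apart.

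Several arrays stood apart from the rest. Probes well above background made up 74.3% to 78.3% of each border-zone array and 73.7% of sham C4, against 51.0% of C5 and 52.4% of C6. According to the file headers, C4 was scanned together with the 3 border-zone arrays, while C5 and C6 have 1 scan each. The other border-zone arrays, M17 and M24, differed more than 2-fold on 572 probes, and on 97.6% of these M25 took an intermediate value, against 14.6% to 63.3% when each of the other arrays was set between the rest of its group. Whether M25 is a separate animal is therefore in doubt, and n = 3 counts arrays. Nothing in the labels states that the samples of a group were processed separately, so p-values measure only the spread between these arrays. For these reasons each of the 10 genes is also given against C4 alone (a fit with scan as a block, whose 2 residual degrees of freedom hold no spread between sham arrays) and without M25.

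Of 11 measured cardiomyocyte markers, which include the contractile genes Myh6, Tnnt2 and Tnni3, all were above background on all 6 arrays and 0 passed the test by limma, with 0 also at an unadjusted p below 0.05. Their summed linear level, in units of each array's 75th percentile, was 742 to 848 in the border zone and 807 to 1027 in sham. Neutrophil markers were higher in the border zone, with 7 of 8 tested genes called and a summed level of 8.80 to 9.63 against 0.503 to 0.773 in sham. Among 10 tested monocyte and macrophage markers 5 were higher and 1 lower, and the summed level was 82.6 to 86.0 against 43.4 to 50.8. This sum rests largely on Lyz2, which had the highest level of these markers on each border-zone array and was higher by 1.70 log2 units. Among the others, Mrc1 and C1qb were higher by 0.94 and 0.82, and Adgre1 was lower (-0.77). C1qa (-0.0045) and Csf1r (-0.48) did not pass. For fibroblast markers 1 of 7 was higher and 2 were lower, and the summed level was 68.6 to 80.6 against 97.3 to 125. Among 4 endothelial markers 1 was lower, with a summed level of 10.4 to 13.2 against 14.9 to 16.96. Over all genes tested, 9.9% were called higher and 11.9% lower. The fibroblast and endothelial lists are too short to tell their counts from these shares. All 19 measured markers of central nervous tissue were higher on C5 and on C6 than on each of the other 4 arrays, and 7 of them were not above background on any of those 4. Of these 7, Syt1, Gad2 and Slc17a7 were not above background on C5 or C6 either. The lowest processed signal was 6.16 on C5 and 4.59 on C6, against 1.40 to 1.70 on the other arrays. The part of this floor in the order of the undetected markers was not tested. The summed level of all 19 markers was 18.3 on C5 and 21.7 on C6, 5.82 on C4 and 3.44 to 3.79 in the border zone. The part of these other cell types in the clock gene results was not tested.

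The mammalian clock is a transcriptional feedback loop. BMAL1 pairs with CLOCK or with its paralogue NPAS2, and the pair activates genes through E-box elements, among them the Per and Cry genes, whose proteins in turn repress the pair. Nr1d1, itself an E-box target, encodes REV-ERB alpha, which represses Bmal1 and Npas2 through ROR response elements, and Dbp encodes a transcription factor that carries the rhythm to further genes through D-box elements. In cardiomyocytes a working clock shapes daily rhythms of metabolism, contractile function and electrical properties, and Bmal1 and Npas2 peak at nearly the opposite phase to Per2, Per3, Dbp, Nr1d1 and Ciart.

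Promoters are shown for members whose windows hold these elements, among them Bmal1, which fell, and Ciart and Per2, which rose. RefSeq promoter windows of the GRCr8 assembly, running from 250 bases before to 50 bases after each gene start, were at hand for 9 of the 10 genes, with 11 windows in all. Capitals mark matches on either strand to the E-box CACGTG, the E-box variant CACGTT, the core AGGTCA of the ROR element or the D-box TTATGTAA. No listed match overlapped another, and the cAMP response element TGACGTCA had no match in any of the 11 windows. Bmal1 lies at chr1:176766078-176766377 on the plus strand, Ciart at chr2:186112197-186112496 on the minus strand, Per2 at chr9:99496944-99497243 on the minus strand, and the second start of Nr1d1 at chr10:84229405-84229704 on the minus strand.
Bmal1: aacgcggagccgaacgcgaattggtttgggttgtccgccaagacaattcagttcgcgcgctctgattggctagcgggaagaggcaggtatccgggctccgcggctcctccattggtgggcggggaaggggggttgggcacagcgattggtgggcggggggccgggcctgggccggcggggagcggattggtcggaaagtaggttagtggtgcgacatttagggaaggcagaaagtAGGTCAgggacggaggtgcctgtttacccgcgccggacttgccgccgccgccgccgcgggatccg
Ciart: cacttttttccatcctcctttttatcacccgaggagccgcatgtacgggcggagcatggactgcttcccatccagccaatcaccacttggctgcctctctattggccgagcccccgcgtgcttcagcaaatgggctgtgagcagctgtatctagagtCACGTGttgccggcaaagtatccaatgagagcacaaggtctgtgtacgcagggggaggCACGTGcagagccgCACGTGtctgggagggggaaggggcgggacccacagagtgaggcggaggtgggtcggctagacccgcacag
Per2: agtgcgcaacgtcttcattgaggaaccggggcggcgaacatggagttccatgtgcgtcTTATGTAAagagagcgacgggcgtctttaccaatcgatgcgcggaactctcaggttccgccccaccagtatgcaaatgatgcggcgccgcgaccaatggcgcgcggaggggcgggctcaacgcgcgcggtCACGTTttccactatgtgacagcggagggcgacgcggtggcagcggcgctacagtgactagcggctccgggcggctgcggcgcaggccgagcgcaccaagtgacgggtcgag
Nr1d1: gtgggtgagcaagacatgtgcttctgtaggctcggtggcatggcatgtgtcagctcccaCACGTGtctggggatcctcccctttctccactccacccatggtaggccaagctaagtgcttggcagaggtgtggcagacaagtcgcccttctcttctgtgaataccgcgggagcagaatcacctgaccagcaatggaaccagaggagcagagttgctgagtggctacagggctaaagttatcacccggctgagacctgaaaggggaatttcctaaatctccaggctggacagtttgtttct
Ciart, a repressor of the BMAL1 and CLOCK pair, had 3 E-boxes, starting 93, 35 and 21 bases before the gene start. Per2 had an E-box variant 62 bases and a D-box 192 bases before its start. Bmal1 had a ROR core 15 bases before its start. Nr1d1 had an E-box 191 bases before its second start and, in the window of its first start (chr10:84231763-84232062, minus strand), an E-box variant on the reverse strand 174 bases before it. The windows of Npas2, Clock, Per1, Per3 and Dbp held none of the 5 motifs. Among all 33469 promoter windows of this length, 6.42% held the E-box, 4.83% its variant, 16.2% the ROR core, 0.893% the D-box and 1.83% the cAMP response element.

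**Figure D1:**
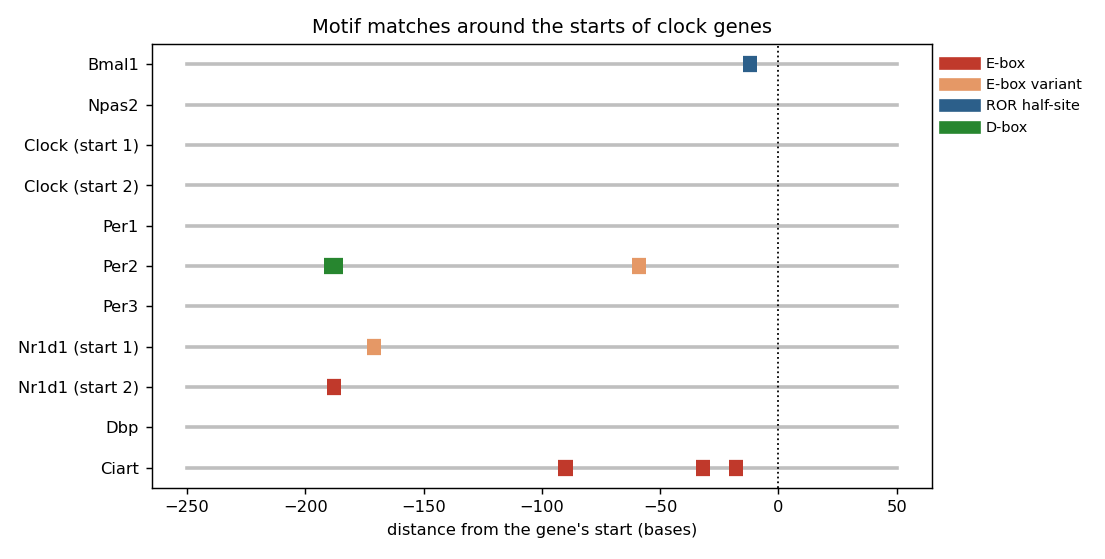
Positions of the motif matches in the 11 promoter windows, as distance in bases from the gene start (dotted line), with 1 grey bar per window running from 250 bases before to 50 bases after the start. Ciart carries 3 E-boxes within 93 bases of its start, and the windows of Npas2, Clock, Per1, Per3 and Dbp hold no match.

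The question for each gene was whether its level in the border zone 6 h after ligation differed from sham. Levels are log2 processed signal minus the 75th percentile of the array, so a level of 0 equals that percentile, and levels of different probes are not compared. Levels are listed in the order M17, M24, M25 for the border zone and C4, C5, C6 for sham. Differences are border zone minus sham with the standard error of a limma fit over all probes, and a gene passed when its Benjamini-Hochberg adjusted p was below 0.05. Of the 10 clock genes 2 fell (Bmal1 and Npas2), 2 rose (Per2 and Ciart) and 6 did not pass. Over all 11001 genes tested, 9.9% were called higher and 11.9% lower. Each array centred on its median instead gave 67.6% of the called probes as higher, against 46.7% here, and left the same number of clock genes lower and 3 higher.

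**Figure D2:**
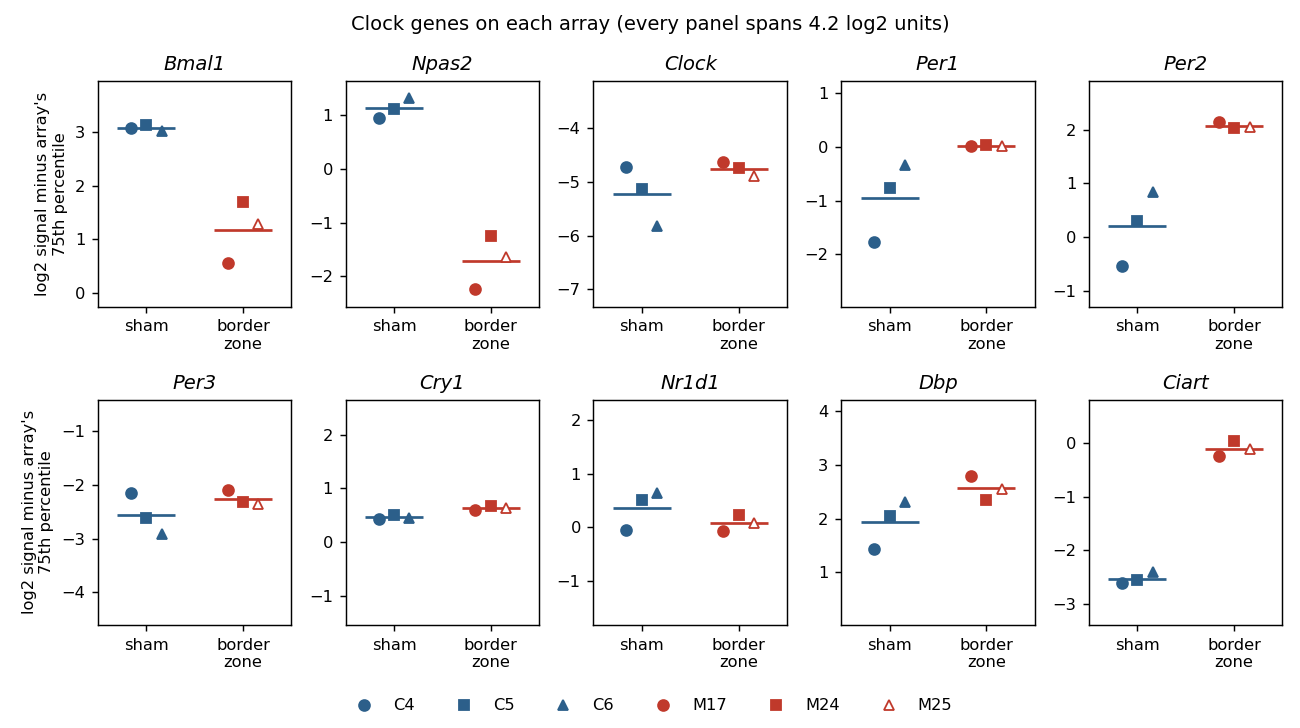
Level of each of the 10 clock genes on every array, as log2 signal minus the 75th percentile of the array, with sham in blue and border zone in red. Horizontal lines are group means of 3 arrays, the open triangle is M25, every panel spans the same number of log2 units, and Clock was not well above background on C5 and C6. Bmal1 and Npas2 lie lower and Per2 and Ciart higher in the border zone with no overlap, while Clock, Per3 and Nr1d1 overlap between the groups.

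Both activator genes with a strong signal fell. Bmal1, the partner that CLOCK and NPAS2 share, had levels of 0.56, 1.69 and 1.29 in the border zone and of 3.07, 3.13 and 3.02 in sham. All border-zone arrays lay below all sham arrays, and the sham arrays lay close together while M17 was the lowest of the border zone. The difference was -1.90 ± 0.29 (SE, n = 3; 95% confidence interval -2.60 to -1.19), a 3.72-fold lower level (limma, adjusted p = 0.0113). Against C4 alone it was nearly the same size, -1.89, but did not pass (limma, adjusted p = 0.0738). Without M25 it was -1.95 and did not pass either (limma, adjusted p = 0.0636).

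Npas2, the paralogue of Clock, fell most among the 10 genes. Its levels were -2.24, -1.25 and -1.63 in the border zone and 0.95, 1.12 and 1.31 in sham. The groups were far apart, and M17 was again the lowest array. The difference was -2.84 ± 0.27 (95% confidence interval -3.50 to -2.18), 7.14-fold lower (limma, adjusted p = 0.00320). It passed against C4 alone at -2.66 (limma, adjusted p = 0.0342) and without M25 at -2.87 (limma, adjusted p = 0.0298). With M25 left out and C4 as the only sham array it was -2.70 (limma, adjusted p = 0.103).

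Clock itself was dim. Its probe exceeded background clearly on each of the 3 border-zone arrays but on only 1 of 3 sham arrays, so it entered the test through the border zone. The levels were -4.62, -4.74 and -4.88 in the border zone and -4.72, -5.13 and -5.81 in sham. The border zone and C4 overlapped, and the lower sham values came from the arrays with the smaller share of probes above background. The difference of 0.48 ± 0.29 did not pass (limma, adjusted p = 0.279), and its 95% confidence interval of -0.22 to 1.18 holds changes in either direction. With C4 as the only sham array it was -0.025 (limma, adjusted p = 0.912), and without M25 it was 0.54 (limma, adjusted p = 0.404).

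The E-box targets split into genes that rose, genes that did not pass with groups apart, and genes that overlapped. Ciart, also called Chrono, had the smallest adjusted p of the 10 genes. Its levels were -0.25, 0.034 and -0.11 in the border zone and -2.62, -2.56 and -2.41 in sham. Both groups were tight and far apart. The difference was 2.42 ± 0.13 (95% confidence interval 2.10 to 2.73), 5.35-fold higher (limma, adjusted p = 0.000799). Against C4 alone it was 2.51 (limma, adjusted p = 0.0101), and without M25 it was 2.42 (limma, adjusted p = 0.0171). With M25 left out and C4 as the only sham array it was still 2.51 in size (limma, adjusted p = 0.0550).

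Per2, a repressor of the BMAL1 pairs, also rose. Its levels were 2.14, 2.03 and 2.05 in the border zone and -0.53, 0.30 and 0.84 in sham. The border-zone arrays agreed closely, and C4 was the lowest sham array. The difference was 1.87 ± 0.34 (95% confidence interval 1.03 to 2.71), 3.65-fold higher (limma, adjusted p = 0.0189). With C4 as the only sham array it was 2.61 (limma, adjusted p = 0.00614). Without M25 it was 1.88 and did not pass (limma, adjusted p = 0.0923), and it also missed the threshold without M17, M24 or C5 (limma, adjusted p = 0.0758, 0.0733 and 0.0604). With M25 left out and C4 as the only sham array the Per2 difference was 2.62. That fit holds no spread between sham arrays, and C4 was the lowest of them.

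Per1, a Per gene that also answers to stress hormones and cAMP signals, had levels of 0.018, 0.028 and 0.022 in the border zone. In sham its levels were -1.77, -0.76 and -0.34. The border-zone arrays were nearly identical and above every sham array, and the sham arrays were widely spread. The difference of 0.98 ± 0.36 (95% confidence interval 0.093 to 1.87) did not pass (limma, adjusted p = 0.110). Against C4 alone it was 1.80 and passed (limma, adjusted p = 0.00896), while without M25 it was 0.98 and did not (limma, adjusted p = 0.264). Without C4 it was 0.57 and passed too (limma, adjusted p = 0.0363), in a fit whose groups were never scanned together. In that fit 7433 of 18053 probes passed, against 3460 of 17930 with all arrays.

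Per3, the third Per gene, had levels of -2.10, -2.32 and -2.36 in the border zone. Its levels were -2.14, -2.61 and -2.92 in sham. The groups overlapped through C4. The difference of 0.30 ± 0.22 did not pass (limma, adjusted p = 0.365), with a 95% confidence interval of -0.24 to 0.84. With C4 as the only sham array it was -0.12. Without C4 it was 0.51 and passed (limma, adjusted p = 0.0484), as did 7433 of 18053 probes in that fit. Without M25 it was 0.35 (limma, adjusted p = 0.483).

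Cry1, which encodes a cryptochrome repressor, differed little. Its levels were 0.59, 0.68 and 0.63 in the border zone and 0.43, 0.50 and 0.45 in sham. All border-zone arrays were above all sham arrays by a small margin. The difference of 0.17 ± 0.10 did not pass (limma, adjusted p = 0.265), and the 95% confidence interval of -0.073 to 0.42 reaches to at most 1.34-fold. It was 0.20 against C4 alone (limma, adjusted p = 0.218) and 0.17 without M25 (limma, adjusted p = 0.525), and it did not pass in any of the 13 alternatives computed for it.

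Nr1d1, the repressor that acts on ROR elements, had levels of -0.072, 0.23 and 0.084 in the border zone. In sham it had -0.052, 0.50 and 0.63. The groups overlapped, with C4 among the border-zone arrays. The difference was -0.28 ± 0.21 (95% confidence interval -0.79 to 0.24; limma, adjusted p = 0.379). Against C4 alone it had the other sign, 0.13. Without C4 it was -0.48 and passed as lower (limma, adjusted p = 0.0375), in a fit where 7433 of 18053 probes passed in either direction. Leaving out M25 gave -0.28 (limma, adjusted p = 0.564). The other Nr1d1 probe gave -0.31 ± 0.21 (limma, adjusted p = 0.319).

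Dbp, the PAR bZIP output factor, had levels of 2.80, 2.34 and 2.55 in the border zone. Its levels were 1.44, 2.05 and 2.30 in sham. The groups did not overlap, but M24 and C6 nearly met. The difference of 0.63 ± 0.25 (95% confidence interval 0.0054 to 1.25) was 1.55-fold and did not pass (limma, adjusted p = 0.135). With C4 as the only sham array it was 1.12 and passed (limma, adjusted p = 0.0438), while without C4 it was 0.39 (limma, adjusted p = 0.142) and without M25 0.64 (limma, adjusted p = 0.303).

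Across the 10 genes, 7 had no overlap between the groups, 5 of them higher (Per1, Per2, Cry1, Dbp and Ciart) and 2 lower (Bmal1 and Npas2) in the border zone. Over all genes tested, the border zone lay wholly above sham for 21.4% and wholly below for 25.4%. The median difference of the 10 genes was 0.39, or 0.17 against C4 alone, beside -0.047 for all genes in both fits. Against C4 alone 4 clock genes were higher (Per1, Per2, Dbp and Ciart) and 1 was lower (Npas2), where 8.79% of all genes were called higher and 8.44% lower. Without M25, 1 was higher (Ciart) and 1 lower (Npas2), where 2.1% of all genes were higher and 1.57% lower. Without M25 and against C4 alone, 1 was higher (Per2) and 0 lower, where 0.518% and 0.0545% of all genes were called by limma. At an unadjusted p below 0.05, 4 clock genes were higher and 2 lower in that fit. The share over all genes at this unadjusted threshold was not computed, so these counts cannot be set beside the adjusted shares. The residual spread of that fit lay only between M17 and M24.

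**Figure D3:**
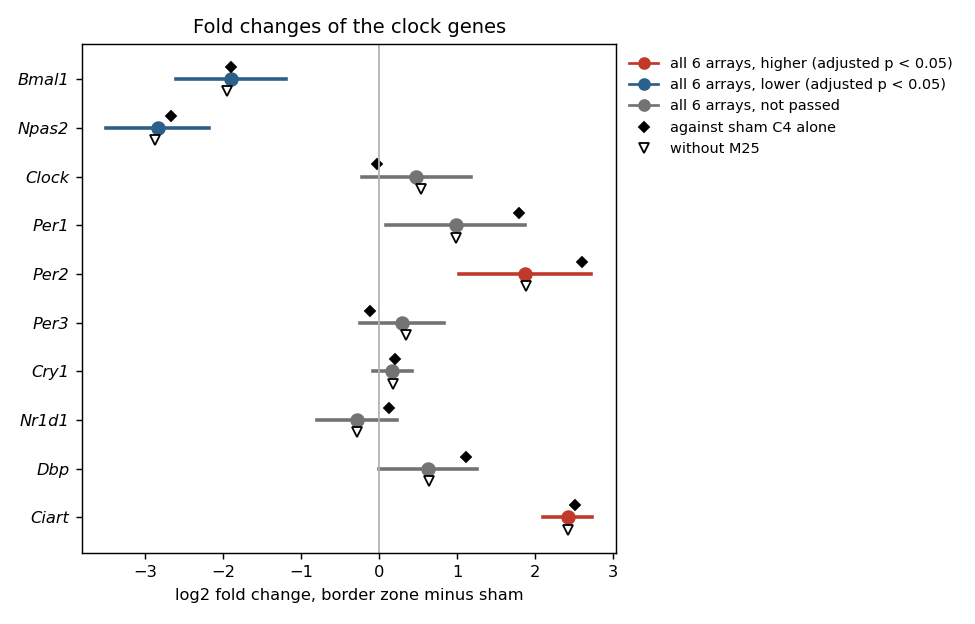
Log2 fold change of the 10 clock genes, border zone minus sham, as circles with 95% confidence intervals (n = 3 arrays per group, limma), together with the values against C4 alone (diamonds) and without M25 (open triangles). Bmal1 and Npas2 lie below 0 and Per2 and Ciart above 0 under every setting shown, and Clock, Per3 and Nr1d1 change sign between all sham arrays and C4 alone.

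The spread within a group differed from gene to gene. Bmal1 had an SD of 0.57 in the border zone and 0.056 in sham, and M17 was 1.13 lower than M24. For Npas2 the SDs were 0.50 and 0.18. These 2 activators were more variable among border-zone arrays, where M17 was the lowest in both, while Clock had SDs of 0.13 in the border zone and 0.55 in sham. Per1 and Per2 showed the reverse, with an SD of 0.0054 in the border zone and 0.74 in sham for Per1, and 0.061 and 0.69 for Per2. Since M25 lay between M17 and M24 for 8 of the 10 genes (not for Clock and Per3), border-zone SDs that include it are too small if it is no separate animal.

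Part of the sham spread lay between C4 and the other sham arrays. C4 minus the mean of C5 and C6 was -1.22 for Per1, -1.11 for Per2, -0.73 for Dbp and -0.62 for Nr1d1. For these 4 genes C4 was the lowest sham array. It was 0.75 for Clock and 0.63 for Per3, where C4 was the highest. The difference was -0.26 for Npas2, -0.13 for Ciart, -0.045 for Cry1 and -0.0026 for Bmal1. Bmal1, Npas2 and Ciart, which passed the test, are among the 4 genes on which C4 was nearest to the other sham arrays, and Per2, which also passed, is not. The spread between sham arrays enters the standard error, so a small gap of C4 itself favours passing. The scan, the share of probes above background and the central nervous markers separate C4 from C5 and C6 in the same way, and their part in these values was not tested.

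A difference between probes of the same array is free of any constant that scales the whole array. The mean of the activators (Bmal1, Npas2 and Clock) minus the mean of the 7 E-box targets was -2.55, -1.87 and -2.15 in the border zone. In sham it was 0.52, 0.076 and -0.29. Its group means were -2.19 ± 0.34 and 0.10 ± 0.40 (SD, n = 3), a gap of -2.29 log2 units. Clock, which was not above background on 2 sham arrays, enters this mean, so its size is uncertain. With Clock left out, a choice made after seeing the data, the difference was -1.29, -0.21 and -0.58 in the border zone and 2.76, 2.50 and 2.37 in sham, a gap of -3.24. The groups did not overlap with or without Clock. Both versions combine values already given for each gene and are no separate support.

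Single pairs likewise combine values already given for each gene and are no separate support. Bmal1 minus Ciart was 0.81, 1.65 and 1.40 in the border zone and 5.69, 5.69 and 5.43 in sham, a shift of -4.31. Npas2 minus Per2 was -4.38, -3.28 and -3.68 in the border zone and 1.49, 0.82 and 0.47 in sham, a shift of -4.71. The groups did not overlap in either pair. Per1 minus Nr1d1 was 0.089, -0.20 and -0.061 in the border zone and -1.72, -1.26 and -0.97 in sham, a shift of 1.26, although neither gene passed alone. Npas2 minus Nr1d1 shifted by -2.56, and Per2 minus Dbp by 1.24.

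**Figure D4:**
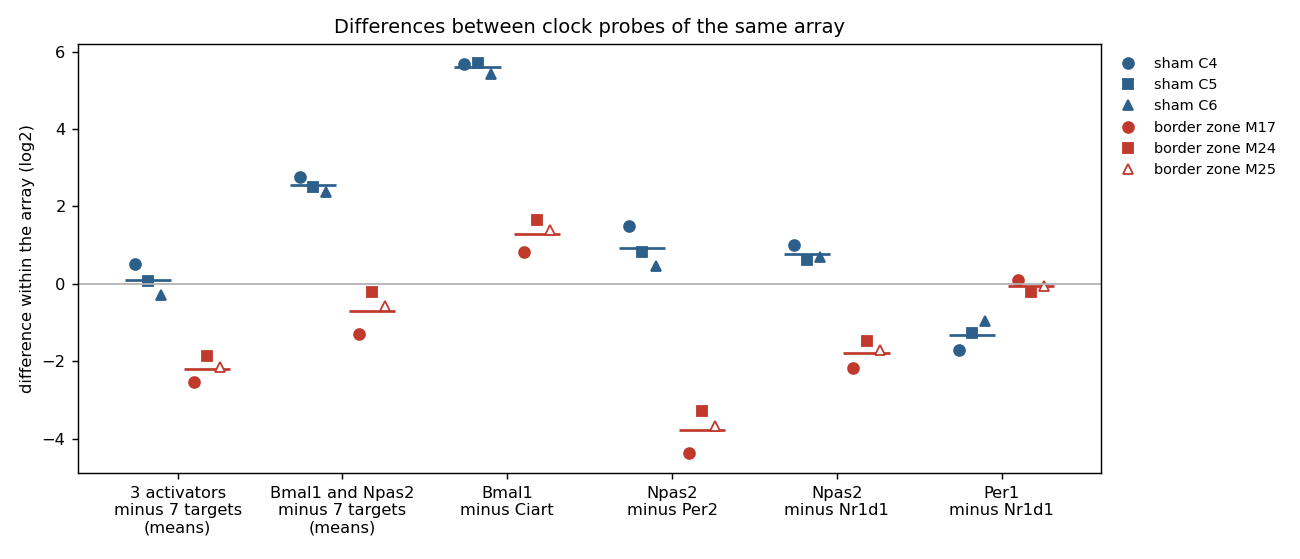
Differences between clock gene probes of the same array, in log2 units, for sham (blue) and border zone (red), with 1 point per array and a line at each group mean of 3 arrays. The activator mean minus the target mean lies between -2.55 and -1.87 in the border zone and between -0.29 and 0.52 in sham, it is also shown without Clock, and no plotted difference overlaps between the groups.

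Among other clock genes some rose and none was called lower. Of 19 listed genes 10 had a probe, all above background on all 6 arrays, and 4 were higher, 0 lower and 6 did not pass by limma. At an unadjusted p below 0.05, 5 were higher and 1 lower, a threshold at which the share over all genes was not computed. Over all genes 9.9% were called higher and 11.9% lower, so 0 lower of 10 is near that share. The median difference was 0.32, or 0.53 against C4 alone. Noct, a clock-controlled enzyme that removes phosphate from NADP and belongs to the deadenylase family, had levels of 3.21, 3.96 and 3.59 in the border zone and 1.87, 1.52 and 1.57 in sham. All border-zone arrays lay well above all sham arrays. The difference was 1.93 ± 0.22, 3.82-fold higher (limma, adjusted p = 0.00505), and it passed against C4 alone at 1.72 (limma, adjusted p = 0.0436) and without M25 at 1.93 (limma, adjusted p = 0.0436).

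The other 3 called genes encode transcription factors. Bhlhe40, an E-box repressor of the clock, was higher by 1.22 ± 0.22 (limma, adjusted p = 0.0176), but by only 0.48 with normexp background correction, where it did not pass. Tef, a PAR bZIP factor that shares the D-box with Dbp, was 1.90-fold higher at 0.92 ± 0.14 (limma, adjusted p = 0.0116). Nfil3, which represses through the D-box, was 1.82-fold higher at 0.87 ± 0.16 (limma, adjusted p = 0.0193) and did not pass against C4 alone (0.76; limma, adjusted p = 0.0942). Tef, which activates through the D-box, and Nfil3, which represses there, rose together. Without M25 Noct alone of the 4 passed. Against C4 alone 3 genes were higher (Noct, Bhlhe40 and Tef) and 1 was lower, Timeless (-1.01; limma, adjusted p = 0.0299), chosen after its values were seen, which had -0.71 ± 0.22 in the fit over all arrays (limma, adjusted p = 0.0761).

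Genes reported to follow the clock in the heart included 4 that rose and 2 that fell. All 16 listed genes had a probe above background on all 6 arrays, and 4 were higher, 2 lower and 10 did not pass, with a median of 0.22, or 0.36 against C4 alone. Beside the 9.9% of all genes called higher and 11.9% called lower, the 2 lower of 16 are near the share over all genes. Pdk4, the kinase that shuts off pyruvate dehydrogenase, had levels of 0.44, -1.08 and -0.20 in the border zone and -2.74, -3.30 and -3.14 in sham. M17 was the highest array, and no border-zone array came near sham. The difference was 2.78 ± 0.40, 6.89-fold higher (limma, adjusted p = 0.00958), and it was 2.46 against C4 alone without passing (limma, adjusted p = 0.0760).

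Dgat2, an enzyme of triglyceride synthesis, was 3.13-fold higher at 1.65 ± 0.30 (limma, adjusted p = 0.0181) and passed against C4 alone at 2.14 (limma, adjusted p = 0.0307). Pik3r1, a regulatory subunit of phosphoinositide kinase, was 2.63-fold higher at 1.39 ± 0.21 (limma, adjusted p = 0.0117), but did not pass against C4 alone (1.34; limma, adjusted p = 0.0738) or with normexp (0.59). Ucp3, a mitochondrial carrier of muscle, fell by 1.36 ± 0.30 (limma, adjusted p = 0.0318) and did not pass against C4 alone (-1.45; limma, adjusted p = 0.128). The remaining called genes, chosen after their values were seen, were Tspan4 (1.08 ± 0.11; limma, adjusted p = 0.00406) and the potassium channel gene Kcnh2 (-0.97 ± 0.12; limma, adjusted p = 0.00594). Both passed against C4 alone, at 1.08 and -0.81 (limma, adjusted p = 0.0228 and 0.0215). Without M25 Tspan4 alone was called. At an unadjusted p below 0.05, 4 genes were higher and 3 lower in that fit, and the share over all genes there was not computed. Klf15 and Kcnip2, through which the clock acts on cardiac repolarisation, were also chosen after their values were seen and did not pass, at -0.39 ± 0.16 and 0.40 ± 0.25.

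**Figure D5:**
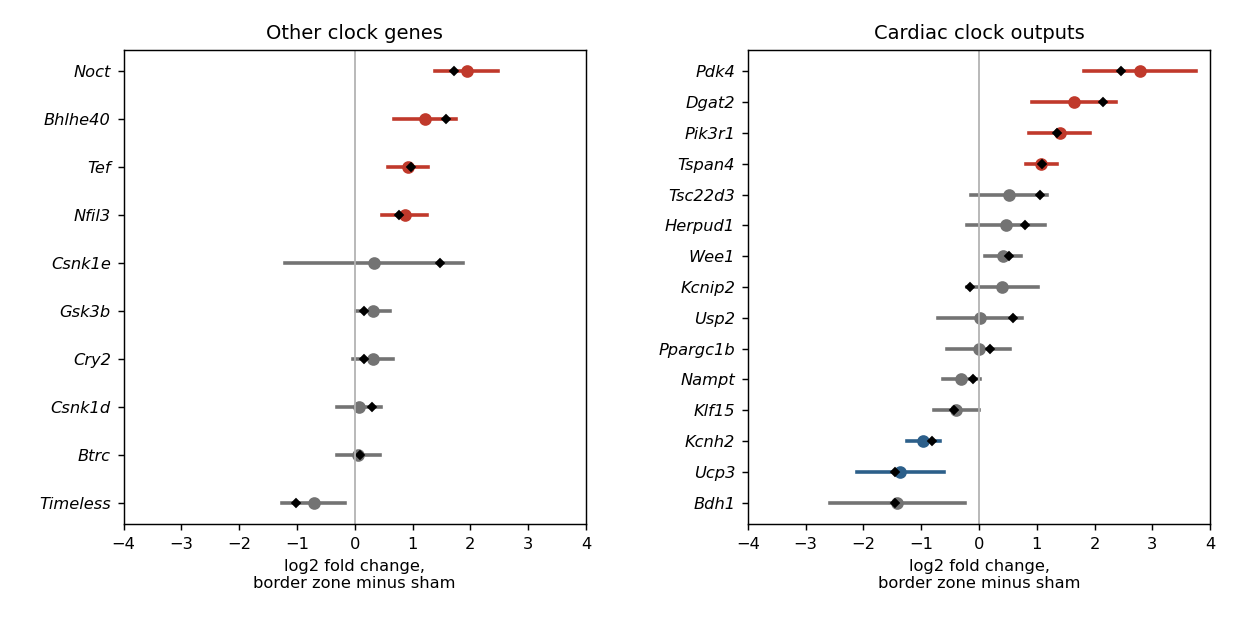
Log2 fold change, border zone minus sham, of 10 other clock genes and of the cardiac clock outputs reported here, as circles with 95% confidence intervals (n = 3 arrays per group, limma) and the value against C4 alone as diamonds. Red marks genes called higher, blue genes called lower and grey genes that did not pass: 4 of the other clock genes are red and none is blue, and of the outputs 4 are red and 2 blue.

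Genes with the pattern most like that of Bmal1 were sought among 10903 protein-coding genes outside the lists, by the root mean square difference of centred levels over the 6 arrays. The nearest were Lrrc17 (0.106), Maob, a monoamine oxidase (0.117), and Scrn1 (0.126). Their differences were -1.81, -1.92 and -1.98, beside -1.90 for Bmal1, and in each M17 was the lowest array. For Nr1d1 the nearest were Maged1 (0.0365), Tomm34 (0.0428) and Sdf2 (0.0436). In all of these C4 lay below the mean of C5 and C6, by 0.67, 0.64 and 0.62, as it did by 0.62 for Nr1d1. The genes near Bmal1 and near Nr1d1 were picked for this likeness. Their like differences and array order follow from that choice and are no separate support.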

How the data were processed

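The members and gene lists were chosen with earlier results of these data known. The scanner's spot signals are intensity values that, per the file headers, had their background subtracted and spatial trends removed and were not normalized between arrays. The submitters' processing notes name Agilent Feature Extraction 11.0.1.1. The other deposited columns used are flags of 0 or 1 per spot (control, outlier, saturated, well above background). No spot was saturated. The authors also deposited a table on the log2 scale, whose scale and centring are not given in the sources used here. Its columns share nearly the same quantiles. It served as an alternative, with 24415 of its 24529 probes matched.

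From the scanner files, log2 of the processed signal minus the 75th percentile of each array was computed, without control and outlier spots and with the spots of a probe averaged. Of 24684 probes, 70 had no usable spot on some array. Testing required a probe to be well above background on every array of the border zone or of sham, which left 17930 probes (17894 by the border zone and 11972 by sham). Dim sham signal was therefore tested more often than dim border-zone signal. Groups were compared two-sided with lmFit and eBayes of limma 3.58.1 under R 4.3.3, with Benjamini-Hochberg adjustment over all tested probes. Where a gene had several probes, the one with the highest mean stood for it. The fit was tested on simulated data. Tables and figures used matplotlib 3.10.9, pandas 2.3.3, numpy 2.4.6 and Python 3.11.15. Probes were named through a RefSeq gene table of GRCr8. The array design is annotated on another build and its coordinates were not used.

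The counts for the cardiac outputs include 1 gene that is not reported here by name or value. Named were all members, up to 4 called genes of each other list by size of change, and the 3 genes nearest to Bmal1 and to Nr1d1. Alternatives were quantile scaling, median scaling, normexp background correction (offset 50), no filter on dim probes, the authors' table, scan as a block, another probe of a gene, each array left out in turn, and M25 left out with scan as a block. Normexp was planned on the mean spot signal and run on the median spot signal. The number of arrays limits the precision.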

Additional observations from a re-analysis of the deposited data

How the results depend on the processing

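Bmal1, Npas2, Per1, Per2, Cry1, Dbp and Ciart kept their direction in all 13 alternatives computed for each member. Bmal1 passed in 10 of them, Npas2 and Ciart in 12 and Per2 in 9, while Per1 passed in 3, Per3, Nr1d1 and Dbp in 1 each and Clock and Cry1 in 0. The sign turned for Clock with normexp (-0.47) and with scan as a block (-0.025), for Per3 with normexp (-0.060), with scan as a block (-0.12) and with M25 also left out (-0.065), and for Nr1d1 with scan as a block (0.13) and with M25 also left out (0.13). The cause was not tested. With scan as a block 1 clock gene was lower and 4 were higher, and with M25 also left out 0 and 1. Leaving out 1 array gave 1 to 3 lower and 1 to 4 higher clock genes. The 3 lower and 4 higher came without C4, where 7433 of 18053 probes passed, against 3460 of 17930 with all arrays. In the other lists the most genes called higher on leaving out 1 array also came without C4. Among other clock genes 1 was lower with normexp and 1 with scan as a block, 0 were higher by limma with M25 left out and scan as a block (4 at an unadjusted p below 0.05), and leaving out 1 array gave 0 to 1 lower and 1 to 5 higher. Among cardiac outputs 1 was lower with median scaling, without the filter and with scan as a block each. With M25 left out and scan as a block 0 were lower and 0 higher by limma (2 and 5 at an unadjusted p below 0.05), and leaving out 1 array gave 0 to 3 lower and 1 to 5 higher. The activator mean minus the target mean shifted by -2.71 with scan as a block, by -2.72 with M25 also left out and by -3.24 with Clock left out, an alternative chosen after seeing the data, against -2.29. The probe with the smallest p in place of the one with the highest mean moved no count. The share of all genes at an unadjusted p below 0.05 was not computed, so counts given at that threshold have no background.

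Over the probes tested, the median difference was -0.026. Median scaling moved it to 0.16, normexp to -0.35 and testing all probes to -0.26. Of the probes tested 3460 passed, and 2293 did with normexp, 1826 without the filter and 77 with M25 left out and scan as a block. When M25 was left out 509 passed, M24 1152, M17 1313, C5 1399 and C4 7433. No paired analysis was possible because the groups share no replicate number. The data hold 3 arrays per group, 3 scans and an unknown hour of sampling. Differences in clock phase between animals or groups therefore cannot be told apart from an effect of the ligation.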

Other observations

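Differences between C4 and the other sham arrays, in both directions, were also seen in several genes that follow the clock, chosen after their values were seen. Such gaps were common on these arrays. Of 17930 probes tested, C4 differed more than 2-fold from C5 on 2423 and from C6 on 3222, and C5 from C6 on 2006. C4 minus the mean of C5 and C6 was -0.85 for the deubiquitinase Usp2, -0.80 for the glucocorticoid-induced Tsc22d3 and -0.74 for Dgat2, beside -1.22 for Per1 and -1.11 for Per2. It had the other sign for the potassium channel subunit gene Kcnip2, at 0.83. Usp2 had levels of 0.25, -0.27 and 0.014 in the border zone and -0.59, 0.091 and 0.44 in sham, so its groups overlapped and the difference was 0.016 ± 0.29. Csnk1e, a kinase of the Per proteins, had the widest sham spread among the other clock genes, with 0.056 on C4, 2.51 on C5 and 1.02 on C6. In contrast, C4 minus that mean was -0.088 for Tef, -0.0053 for Tspan4 and 0.060 for Klf15.

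Among the other clock genes and cardiac outputs, the E-box CACGTG was also found 198 bases before the start of Tef, 220 before Bhlhe40, 101 before Klf15, 195 before Gsk3b and 48 before Bhlhe41. Tef and Bhlhe40 were called higher, Klf15 (-0.39) and Gsk3b (0.31) did not pass, and Bhlhe41 had no probe. The E-box variant CACGTT was found before the starts of Ucp3, Cry2, Herpud1 and Bmal2. Of these, Ucp3 was called lower (-1.36), Cry2 (0.31) and Herpud1 (0.47) did not pass, and Bmal2 had no probe.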
